A study of Mus musculus with 8 samples.

Results

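To ask how the transcriptional output of ERK signaling differs when *Setd2* is targeted in mouse lung tumors, mRNA counts of 10 ERK output and feedback genes were compared between *K-Ctrl* and *K-Setd2KO* tumors, 4 of each. The genes are the phosphatase genes *Dusp4*, *Dusp5* and *Dusp6*, the Sprouty and Spred genes *Spry1*, *Spry2*, *Spry4* and *Spred1*, the ETS factor genes *Etv4* and *Etv5*, and *Phlda1*. They were chosen by name as common readouts of ERK activity, with earlier results of these data known. All 10 were found among the 48709 genes of the count table and among the 14929 genes with enough counts to test. Both groups carried the same oncogenic allele, which is silent until Cre acts on it, on a mixed strain background. According to the study's methods, tumors were started through the airway with the lentivirus LentiCRISPRv2Cre, which brings Cre, Cas9 and a guide RNA together. The guide was sgGFP, directed at the sequence of green fluorescent protein, in *K-Ctrl* and sgSetd2 in *K-Setd2KO*. *Setd2* encodes the enzyme that trimethylates histone H3 at lysine 36. The labels give neither age nor time of harvest. Whole tumors were frozen, so each library holds tumor cells together with the vessels, fibroblasts and immune cells around them, although the extraction text of the labels speaks of cell lines. The labels do not say whether the tumors of a group came from separate mice, so p-values measure the spread between these tumors.

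In the pathway, active RAS engages RAF kinases, RAF activates MEK and MEK activates ERK, which enters the nucleus and switches on a set of early genes. Many of these genes encode inhibitors of the same pathway, so that their mRNA is used as a readout of ERK output. DUSP proteins take phosphate off ERK, while Sprouty and Spred proteins act higher up, at the step of RAS and RAF. ETV4 and ETV5 are transcription factors induced by ERK, and ETV5 is known as a factor that keeps alveolar type 2 cells, the cells from which many mouse lung adenomas arise, in their differentiated state.

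The sequences before the starts of the 3 members that passed the test, *Spred1*, *Spry2* and *Spry1*, and of *Dusp6*, the most abundant member per length, are shown because ERK acts on such genes in part through ETS factors, which bind DNA around a GGAA core. They are the 250 bases before the RefSeq start, on GRCm38.p6, 5′ to 3′ on the strand of the gene. Capitals mark CGGAAG, an ETS core with its flanking bases, on either strand. The windows are chr2:117120821-117121070 (plus strand), chr14:105896820-105897069 (minus strand), chr3:37639697-37639946 (plus strand) and chr10:99262981-99263230 (plus strand). The *Spred1* window lies before the first base of the gene in the count table, 117121374.
Spred1: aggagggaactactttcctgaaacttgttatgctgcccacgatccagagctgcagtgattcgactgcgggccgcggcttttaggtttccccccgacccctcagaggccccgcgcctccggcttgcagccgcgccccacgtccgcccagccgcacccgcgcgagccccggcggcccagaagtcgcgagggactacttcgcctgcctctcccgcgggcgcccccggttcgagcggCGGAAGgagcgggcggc
Spry2: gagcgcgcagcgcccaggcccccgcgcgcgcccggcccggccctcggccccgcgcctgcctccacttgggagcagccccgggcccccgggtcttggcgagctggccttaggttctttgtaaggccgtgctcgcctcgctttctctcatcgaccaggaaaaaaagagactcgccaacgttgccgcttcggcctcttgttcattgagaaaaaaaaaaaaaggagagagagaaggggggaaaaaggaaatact
Spry1: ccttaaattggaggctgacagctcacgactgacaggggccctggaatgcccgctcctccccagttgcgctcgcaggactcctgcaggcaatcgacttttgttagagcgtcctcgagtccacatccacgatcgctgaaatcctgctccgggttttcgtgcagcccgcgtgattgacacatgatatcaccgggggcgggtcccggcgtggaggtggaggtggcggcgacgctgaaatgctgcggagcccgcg
Dusp6: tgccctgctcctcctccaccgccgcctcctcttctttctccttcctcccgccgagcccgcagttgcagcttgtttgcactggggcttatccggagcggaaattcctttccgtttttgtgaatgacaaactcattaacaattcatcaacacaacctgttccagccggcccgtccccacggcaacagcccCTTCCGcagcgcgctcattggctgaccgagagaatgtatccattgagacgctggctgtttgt

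CGGAAG was found once in the *Spred1* window and once in that of *Dusp6*, on opposite strands, and not in those of *Spry1* and *Spry2*. Across all 32851 promoter windows of this length, 13.6% held it on either strand. RefSeq windows were matched for 6 of the 10 members, and 2 of the 7 windows held the motif. The AP-1 site TGANTCA (6.75% of all windows) and the cAMP response element TGACGTCA (1.55% of all windows) were found in none of the 7. The CArG box, the serum response element's core, was found in the *Dusp5* window and in 1.47% of all windows. None of these motifs is contained in another, and a match is a description of the sequence only.

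Total counts per tumor ranged from 5806599 (*K-Setd2KO* replicate 4) to 21290402, and 3 counts corresponded to between 0.139 and 0.514 CPM, here read counts scaled to a common library size by the trimmed mean of M-values (TMM). The lowest count of any member in any tumor was 71, so none was near this limit. *Setd2* mRNA overlapped between the groups, at 132 to 153 CPM in the controls and 121 to 153 CPM in *K-Setd2KO* (log2 fold change −0.05, edgeR adjusted p 0.824), and a guide-made frameshift need not lower it, so it is no check of the labels. Judged by *Xist* against genes of the Y chromosome, 1 of the 4 *K-Ctrl* and 3 of the 4 *K-Setd2KO* tumors were female. Summed epithelial markers were higher in *K-Setd2KO* and summed leukocyte, macrophage and endothelial markers lower, with values given below.

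Of the 10 members, 3 were called higher in *K-Setd2KO* and 0 lower, where a call is an adjusted p under 0.05 in the edgeR quasi-likelihood test over all genes. The background is that 4.97% of all tested genes were called higher and 7.74% lower. The members were chosen with earlier results of these data known, so such shares stand beside the counts as description only. The called members were *Spred1*, *Spry2* and *Spry1*, all of them inhibitors that act at the RAS and RAF step. The fitted log2 fold change was above 0 for 8 members (52.7% of all tested genes). At an unadjusted p under 0.05, 6 members were higher (13.6% of genes) and 0 lower (16.3% of genes). The median over the members was 0.72, against 0.03 over all genes tested. For 3 members all 4 *K-Setd2KO* tumors lay above all 4 *K-Ctrl* tumors, which held for 9.06% of all tested genes, and for 0 members all lay below (11.2% of genes; 20.3% had no overlap in either direction). The calls depended on how libraries were scaled. With size factors taken from 18 epithelial marker genes 0 members were called higher (0.737% of all genes) and *Dusp4* and *Etv5* were called lower (32.4% of all genes). The DESeq2 Wald test called 6 members, the other 3 being *Dusp6*, *Etv4* and *Phlda1*, and 0 lower, against 8.89% of all genes called higher by that test and 12.5% lower.

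**Figure D1:**
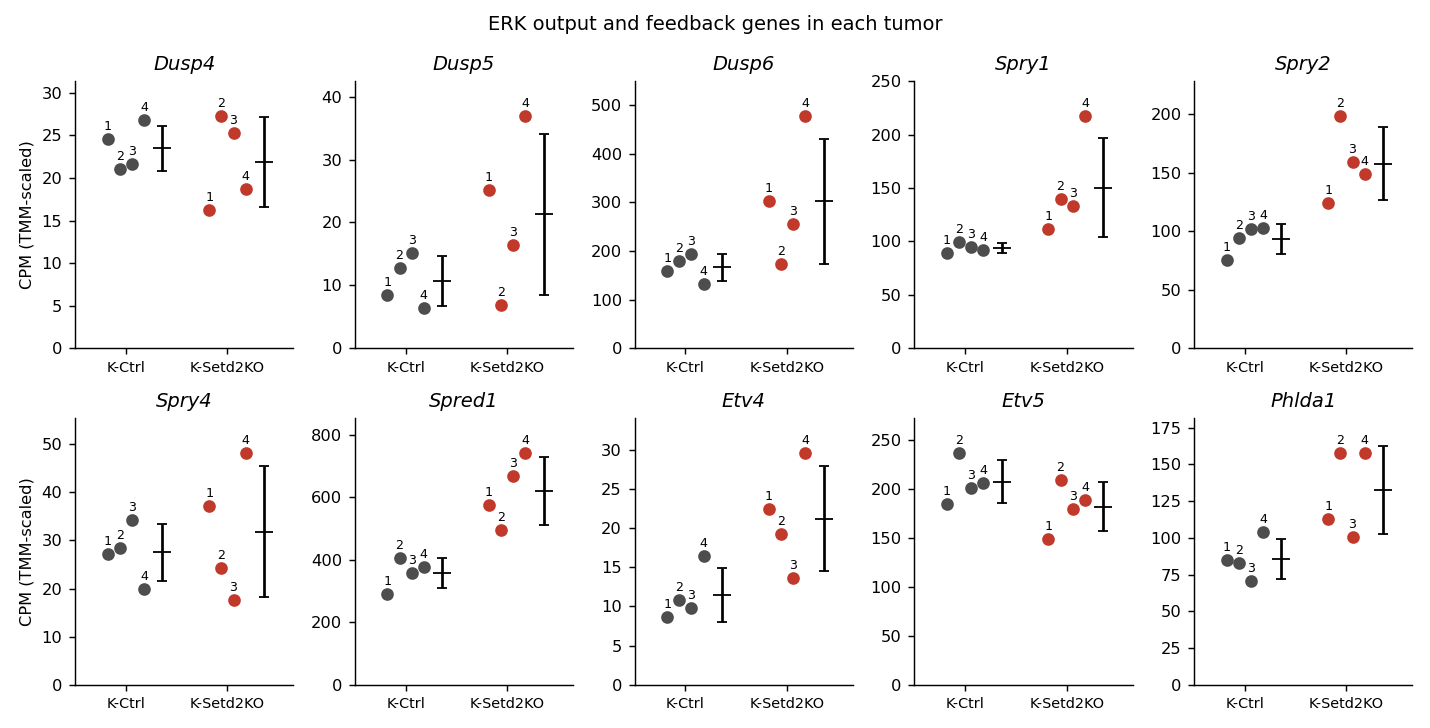
Level of each member in each tumor, in CPM (vertical axes, TMM-scaled), with gray points for the 4 K-Ctrl and red points for the 4 K-Setd2KO tumors, the replicate number above each point, and a bar for the mean and SD. For Spred1, Spry1 and Spry2 the lowest K-Setd2KO tumor (495, 111 and 124 CPM) sits above the highest K-Ctrl tumor (406, 99.4 and 103 CPM), while the groups overlap for the other 7 genes.

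Among the Sprouty and Spred genes, *Spred1* gave the smallest p-value of the members. Its protein brings the RAS inhibitor neurofibromin to the cell membrane. *Spred1* itself (ENSMUSG00000027351.14, chromosome 2, 117121374 to 117182279, plus strand, protein-coding) stood at 291, 406, 358 and 377 CPM in *K-Ctrl* replicates 1 to 4 and at 575, 495, 668 and 743 CPM in *K-Setd2KO* replicates 1 to 4. Every *K-Setd2KO* tumor exceeded every control. It rose 1.73-fold (log2 fold change 0.79 ± 0.167 (SE), adjusted p by edgeR 0.0182; two-sided exact permutation p 0.0286, the smallest 4 against 4 tumors can give). Without *K-Ctrl* replicate 1 or 3 the edgeR adjusted p was 0.0512 and 0.0584, and the other 6 fits that left out 1 tumor kept the call.

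*Spry2* (ENSMUSG00000022114.4, chromosome 14, 105891949 to 105896819, minus strand, protein-coding), a Sprouty gene active in developing lung epithelium, stood at 75.1, 94.0, 102 and 103 CPM in *K-Ctrl* and at 124, 199, 159 and 149 CPM in *K-Setd2KO*. The groups did not overlap, with *K-Setd2KO* replicate 2 the highest and *K-Ctrl* replicate 1 the lowest. *Spry2* rose 1.69-fold (log2 fold change 0.76 ± 0.166 (SE), adjusted p by edgeR 0.0213, exact permutation p 0.0286). The call was lost without *K-Ctrl* replicate 1, 2 or 3 or *K-Setd2KO* replicate 3 (edgeR adjusted p 0.0551, 0.0526, 0.0511 and 0.0531), while the log2 fold change stayed between 0.62 and 0.86.

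*Spry1* (ENSMUSG00000037211.12, chromosome 3, 37639947 to 37644598, plus strand, protein-coding) stood at 89.0, 99.4, 94.5 and 92.0 CPM in the controls, the tightest group of any member on the log2 scale. The *K-Setd2KO* tumors stood at 111, 139.9, 133 and 218 CPM, again all above the controls, with replicate 4 far above the other three. *Spry1* rose 1.604-fold (log2 fold change 0.68 ± 0.193 (SE), adjusted p by edgeR 0.0489, exact permutation p 0.0286). This call was at the edge of the threshold: only 1 of the 8 fits that left out 1 tumor kept it, that without *K-Setd2KO* replicate 1, and without *K-Setd2KO* replicate 4 the log2 fold change was 0.45 (edgeR adjusted p 0.0547). The gene *Gm42922* overlaps *Spry1* on the opposite strand and had between 1 and 23 counts per tumor.

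The fourth gene of this class, *Spry4* (ENSMUSG00000024427.6, chromosome 18, 38586268 to 38601268, minus strand, protein-coding), was not called. It stood at 27.3, 28.4, 34.3 and 19.99 CPM in *K-Ctrl* and at 37.2, 24.2, 17.6 and 48.3 CPM in *K-Setd2KO*, so the *K-Setd2KO* tumors held both the lowest and the highest value. The log2 fold change was 0.20 (SE 0.304, edgeR adjusted p 0.691). Its sign was not stable, at −0.44 with epithelial scaling, −0.13 with sex as a term and −0.06 without *K-Setd2KO* replicate 4.

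None of the phosphatase genes was called. *Dusp6* (ENSMUSG00000019960.7, chromosome 10, 99263231 to 99267488, plus strand, protein-coding) encodes a cytoplasmic phosphatase selective for ERK. It stood at 159, 180.1, 194 and 131 CPM in *K-Ctrl* and at 304, 172, 255 and 478 CPM in *K-Setd2KO*. Here 3 of the 4 *K-Setd2KO* tumors lay above the controls, and replicate 2 lay among them. The log2 fold change of 0.86 (SE 0.283) did not pass the threshold (edgeR adjusted p 0.0763, exact permutation p 0.0857). It was 1.05 (edgeR adjusted p 0.0252) when *K-Setd2KO* replicate 2 was left out, and 0.55 (edgeR adjusted p 0.139) when replicate 4 was.

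*Dusp5* (ENSMUSG00000034765.6, chromosome 19, 53529109 to 53542431, plus strand, protein-coding), the nuclear ERK phosphatase, had the largest fitted log2 fold change of the members, 0.99, and the largest error (SE 0.477, edgeR adjusted p 0.203). It stood at 8.43, 12.7, 15.2 and 6.34 CPM in *K-Ctrl* and at 25.1, 6.88, 16.3 and 37.0 CPM in *K-Setd2KO*. The order of the *K-Setd2KO* tumors was the same as for *Dusp6*, with replicate 4 the highest, then 1, 3 and 2. Without replicate 4 the log2 fold change was 0.59 (edgeR adjusted p 0.431), below those of *Spry2*, *Spred1* and *Etv4* in the same fit (0.78, 0.69 and 0.69). An antisense gene overlaps *Dusp5* in the annotation.

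*Dusp4* (ENSMUSG00000031530.6, chromosome 8, 34807297 to 34819894, plus strand, protein-coding), whose nuclear product also acts on other MAP kinases, stood at 24.6, 21.01, 21.7 and 26.8 CPM in *K-Ctrl* and at 16.3, 27.3, 25.3 and 18.7 CPM in *K-Setd2KO*. The groups overlapped fully, and the log2 fold change was −0.10 (SE 0.193, edgeR adjusted p 0.763). *K-Setd2KO* replicates 1 and 4, the 2 highest tumors for *Dusp5* and *Dusp6*, were the 2 lowest for *Dusp4*. Its sign turned with sex as a term and without *K-Setd2KO* replicate 1 (0.02 each).

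The ETS factor genes had fitted changes of opposite sign, and neither passed the test. *Etv4* (ENSMUSG00000017724.14, chromosome 11, 101769742 to 101785371, minus strand, protein-coding) stood at 8.68, 10.8, 9.74 and 16.4 CPM in *K-Ctrl* and at 22.4, 19.2, 13.6 and 29.6 CPM in *K-Setd2KO*. Only *K-Setd2KO* replicate 3 lay within the controls. The log2 fold change was 0.89 (SE 0.281, edgeR adjusted p 0.068, exact permutation p 0.0571), and it passed the threshold without *K-Ctrl* replicate 4 (1.12, edgeR adjusted p 0.0328), the control with the highest *Etv4*.

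*Etv5* (ENSMUSG00000013089.15, chromosome 16, 22381309 to 22439719, minus strand, protein-coding) stood at 184, 237, 201 and 206 CPM in *K-Ctrl* and at 149, 209, 179 and 189 CPM in *K-Setd2KO*. The groups overlapped, with the highest value in a control and the lowest in *K-Setd2KO* replicate 1. The log2 fold change was −0.19 (SE 0.136, edgeR adjusted p 0.39), and it was the 1 member highest in a *K-Ctrl* tumor.

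*Phlda1* (ENSMUSG00000020205.8, chromosome 10, 111506286 to 111508645, plus strand, protein-coding) encodes a protein with a pleckstrin homology-like domain and belongs to common expression signatures of MAP kinase activity. It stood at 84.6, 82.6, 70.7 and 104 CPM in *K-Ctrl* and at 113, 158, 100.6 and 158 CPM in *K-Setd2KO*. A single *K-Setd2KO* tumor, replicate 3, lay below the highest control. The log2 fold change of 0.63 (SE 0.185) missed the threshold narrowly (edgeR adjusted p 0.0536, exact permutation p 0.0571). The antisense gene *Gm28592* that overlaps it had 0 counts in all tumors.

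**Figure D2:**
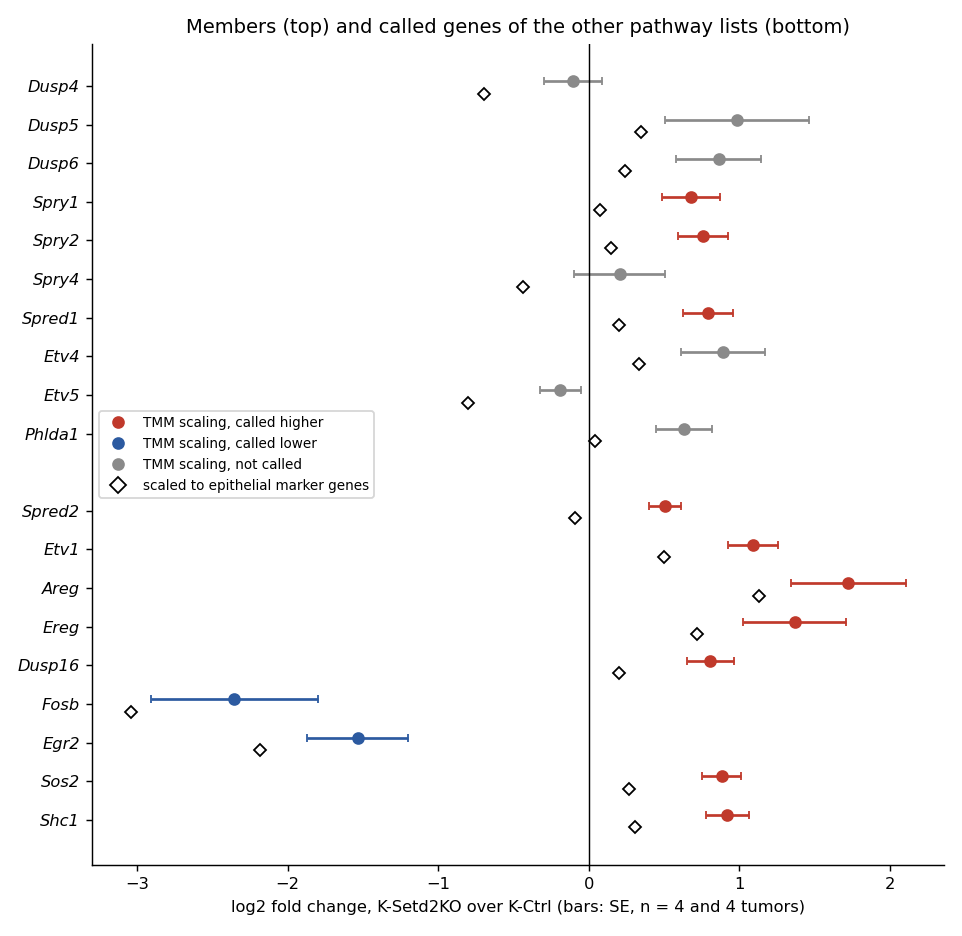
Log2 fold change of K-Setd2KO over K-Ctrl (horizontal axis) for the 10 members (top) and for the called genes of the other pathway lists (bottom); circles with SE bars are the fit with TMM scaling, red for called higher, blue for called lower and gray for not called, and open diamonds are the fit scaled to epithelial marker genes. The diamonds lie to the left of the circles throughout, and those of Spred1, Spry2 and Spry1 (0.20, 0.15 and 0.07) come close to 0.

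Per length, the members fell into a high and a low class in both genotypes. In *K-Ctrl* the order in mean CPM per kilobase of exon was *Dusp6* (59.4 ± 9.77), *Spred1* (52.8 ± 7.18), *Etv5* (50.4 ± 5.35), *Spry2* (44.8 ± 6.18), *Phlda1* (38.8 ± 6.23) and *Spry1* (32.3 ± 1.52; SD, n = 4 each). Neighbors in this order had overlapping ranges. After a gap came *Dusp4* (8.58 ± 0.976), *Spry4* (5.996 ± 1.28), *Dusp5* (4.31 ± 1.62) and *Etv4* (3.68 ± 1.11), of which *Dusp4* did not overlap *Spry4* while the rest overlapped their neighbors. In *K-Setd2KO* the same 6 genes were the high class. *Dusp6* led with 108 ± 46.2 CPM per kilobase, and *Etv5* came last of them (44.2 ± 6.12). The low class ran from *Dusp5* (8.62 ± 5.18) to *Etv4* (6.83 ± 2.16), with every neighbor overlapping.

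The members did not move as a block from tumor to tumor. *K-Setd2KO* replicate 4, the shallowest library, was the highest of all 8 tumors for 6 members (*Dusp5*, *Dusp6*, *Spry1*, *Spry4*, *Spred1* and *Etv4*), and *K-Setd2KO* replicate 2 for 3 (*Dusp4*, *Spry2* and *Phlda1*). In replicate 2, *Spry2* was 1.10 above the control mean on the log2 CPM scale while *Dusp6* was 0.07 above and *Dusp5* was 0.54 below (−0.54). In replicate 4, *Dusp5*, *Dusp6* and *Etv4* were 1.86, 1.54 and 1.41 above the control mean and *Dusp4* was at −0.32. The SD of log2 CPM was larger in *K-Setd2KO* than in *K-Ctrl* for all 10 members, which held for 66.0% of all tested genes. Without *K-Setd2KO* replicate 4 the median log2 fold change of the members was 0.54, *Spred1* and *Spry2* kept their calls (edgeR adjusted p 0.0414 and 0.0413), and *Spry1* did not.

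**Figure D3:**
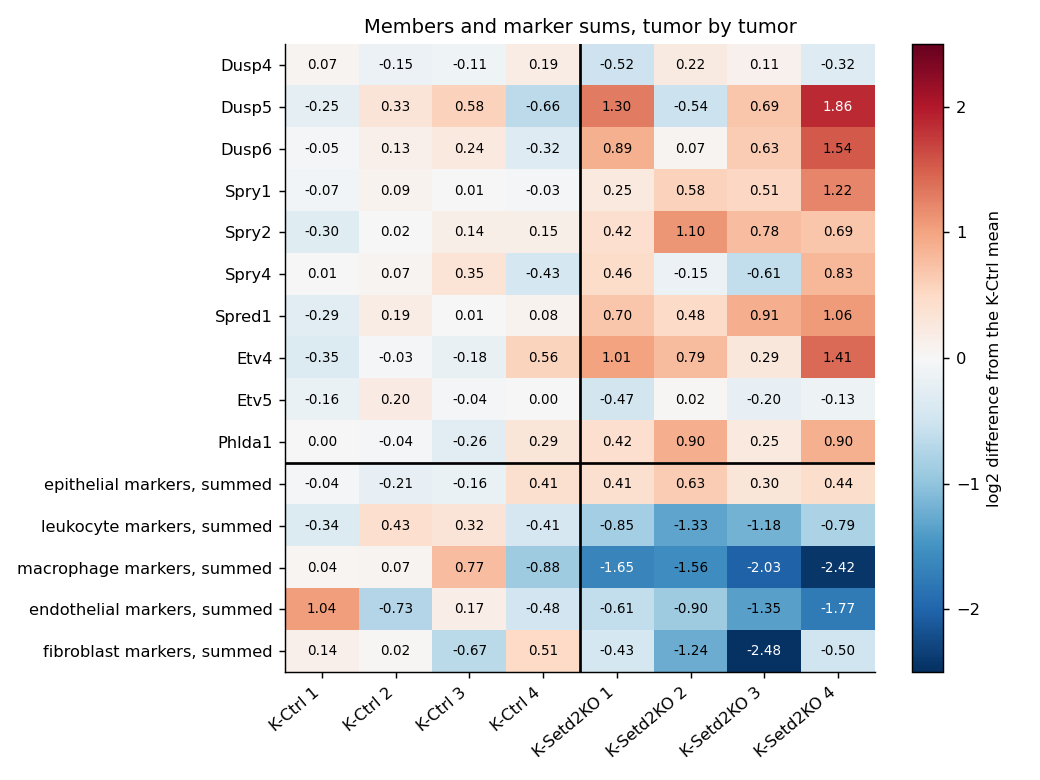
Difference of each tumor (columns) from the K-Ctrl mean in log2 CPM, for the 10 members (upper rows) and for the summed CPM of 5 lists of cell type markers (lower rows), with red above and blue below the control mean. K-Setd2KO replicate 4 is the highest for 6 members, and in the K-Setd2KO columns the epithelial sum is above the control mean by 0.30 to 0.63 and the macrophage sum is at −1.56 to −2.42 from it.

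Markers of cell types moved with the genotype, beside all of these values. Of 18 epithelial genes 7 were called higher and 0 lower (median log2 fold change 0.54), and their summed level was 2976 to 4574 CPM in *K-Ctrl* and 4242 to 5326 CPM in *K-Setd2KO*. In *K-Ctrl*, replicate 4 alone reached the *K-Setd2KO* range. Of 6 leukocyte genes 5 were called lower, with summed levels of 966 to 1728 CPM against 513 to 743 CPM, and likewise 5 of 6 macrophage genes, at 536 to 1685 CPM against 184 to 335 CPM. Endothelial genes (2 of 10 called lower) summed to 642 to 2184 CPM and 311 to 696 CPM, and fibroblast genes (1 of 6 called lower) to 497 to 1121 CPM and 141 to 583 CPM. No defining marker of these 5 lists was at 0 in any tumor. Of alveolar type 1, T cell and neutrophil genes 2 of 6, 1 of 6 and 1 of 5 tested were called lower, and of B cell and smooth muscle genes 0 of 5 each; the neutrophil gene *Ly6g* was at 0 in at least 1 tumor. Of the alveolar type 2 genes, which mark the usual cell of origin of such tumors, 1 of 7 was called higher and 1 lower, and their sums overlapped at 44078 to 65233 CPM and 52816 to 73759 CPM. Fewer cells of a type and less RNA per cell cannot be told apart in such libraries, and the part of these markers in the members' values was not tested.

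The fit was repeated with size factors from the epithelial genes alone, which takes their level as equal on balance in all tumors. This moved the median log2 fold change of all genes from 0.03 to −0.58, a shift of −0.61, and moved the median of the members from 0.72 to 0.11. *Spred1*, *Spry2* and *Spry1* then had log2 fold changes of 0.20, 0.15 and 0.07 (edgeR adjusted p 0.493, 0.562 and 0.823), all above the shifted median of all genes. On this scale the *Spred1* values were 389, 559, 494 and 336 in the controls and 469, 369, 580 and 622 in *K-Setd2KO*, and the groups overlapped. *Dusp4* and *Etv5* came out lower on it, at −0.70 and −0.80 (edgeR adjusted p 0.0391 and 0.0155), on a scale where 32.4% of all genes were called lower. Their groups did not overlap on it, but the share of all genes without overlap on that scale was not counted. Relative to the shift in the median of all genes, *Dusp4* and *Etv5* moved little from their reported values of −0.10 and −0.19. Whether tumor cells themselves differ in the level of any member was not tested, since these libraries do not separate cell types.

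Within a sex 1 group is a single tumor, with 3 *K-Ctrl* and 1 *K-Setd2KO* tumor among males and the reverse among females, so these values have no test. For the 3 called members the direction was already fixed, since their groups did not overlap. The difference in mean log2 CPM was 0.97 in male and 0.55 in female tumors for *Spred1*, 0.79 and 0.72 for *Spry2*, and 0.54 and 0.59 for *Spry1*. *Dusp6* gave 0.68 and 0.70, whereas *Etv4* gave 0.28 and 1.10 and *Spry4* had opposite signs (−0.59 and 0.31). When the fit also held a term for sex, only *Spred1* among the members stayed past the threshold (log2 fold change 0.77, edgeR adjusted p 0.0497), while *Spry2* and *Spry1* had adjusted p of 0.0553 and 0.148.

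**Figure D4:**
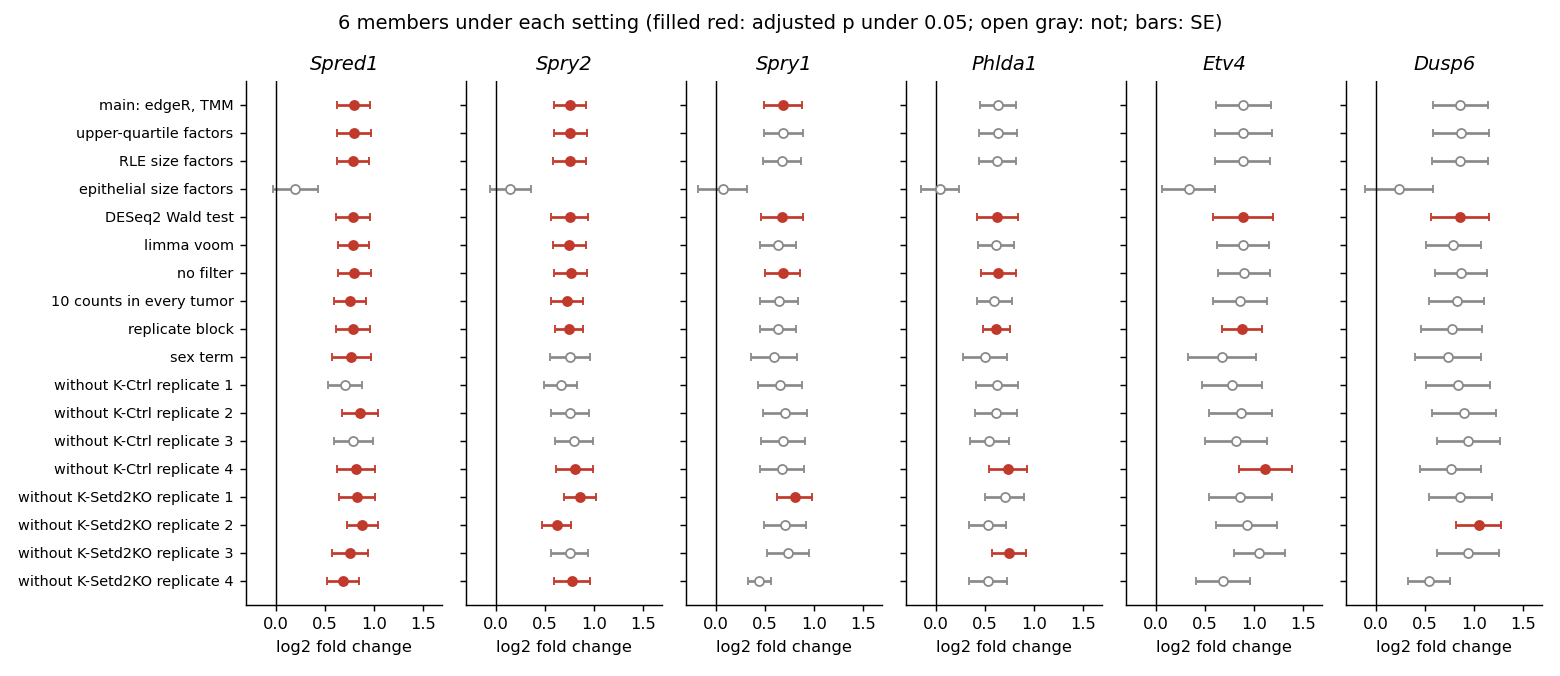
Log2 fold change with its SE (horizontal axes) of 6 members under the fit as reported (top row) and 17 alternatives (other rows), with filled red points where the adjusted p was under 0.05 and open gray points where it was not. Spred1 stays past the threshold in 14 of the 17 alternatives, Spry2 in 11 and Spry1 in 3, and all 6 genes stay above 0 in each of them.

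Other genes of the pathway were counted next, from lists written with earlier results of these data known. The shares of all tested genes to set beside them are 4.97% called higher and 7.74% called lower. At an unadjusted p under 0.05 these shares are 13.6% higher and 16.3% lower. Of 17 other ERK-induced output and feedback genes tested, 4 were called higher and 0 lower (at an unadjusted p under 0.05, 7 higher and 2 lower), with a median log2 fold change of 0.51. They were the ETS factor gene *Etv1*, the third gene of the *Etv4* and *Etv5* family, *Spred2*, and the EGF receptor ligand genes *Areg* and *Ereg*. *Etv1* stood at 26.3, 37.2, 29.8 and 37.0 CPM in *K-Ctrl* and at 63.9, 62.0, 64.5 and 87.5 CPM in *K-Setd2KO* (log2 fold change 1.09 ± 0.167 (SE), adjusted p by edgeR 0.0080) and was called in all 8 fits that dropped a tumor, but not with epithelial scaling (0.50, edgeR adjusted p 0.0887). *Spred2*, the paralog of *Spred1*, stood at 70.5, 66.6, 69.1 and 81.3 CPM and at 104, 104, 93.3 and 107 CPM (log2 fold change 0.51 ± 0.107 (SE), adjusted p by edgeR 0.0191). With epithelial scaling it was at −0.09, and the call was lost without *K-Ctrl* replicate 1, 2 or 3 (edgeR adjusted p 0.0568, 0.0539 and 0.0693).

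*Areg* had the largest log2 fold change of that list, 1.73 (SE 0.380, edgeR adjusted p 0.0226), with 37.1 to 66.1 CPM in *K-Ctrl* and 78.9 to 291 CPM in *K-Setd2KO*. It was the 1 gene of that list still called higher with epithelial scaling (1.13, edgeR adjusted p 0.0199), and lost its call without *K-Ctrl* replicate 1, 2 or 3 (edgeR adjusted p 0.0638, 0.0573 and 0.0664), with no filter (0.0639), with the replicate block (0.0632) and with a sex term (0.0606). *Ereg* had a log2 fold change of 1.37 ± 0.341 (SE, adjusted p by edgeR 0.0335) with overlapping groups. It was called in 2 of the 8 fits that dropped a tumor, those without *K-Ctrl* replicate 2 or *K-Setd2KO* replicate 3, and not with epithelial scaling (0.72, edgeR adjusted p 0.132). The cyclin gene *Ccnd1*, a further readout of ERK, stood at 306 ± 65.1 and 378 ± 83.4 CPM (SD, n = 4 each) and was not called (log2 fold change 0.30, edgeR adjusted p 0.351; −0.27 with epithelial scaling).

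For the next lists too, 4.97% of all tested genes were called higher and 7.74% lower (at an unadjusted p under 0.05, 13.6% and 16.3%). Of 6 other dual-specificity MAP kinase phosphatase genes tested, 1 was called higher and 0 lower (at an unadjusted p under 0.05, 2 higher and 1 lower). That gene, *Dusp16*, whose product acts mainly on other MAP kinases than ERK, stood at 78.3, 67.9, 94.1 and 76.4 CPM in *K-Ctrl* and at 159.9, 108, 134 and 152 CPM in *K-Setd2KO* (log2 fold change 0.81 ± 0.155 (SE), adjusted p by edgeR 0.0141). It was not called with epithelial scaling (0.20, edgeR adjusted p 0.4998). The median of that list was −0.39. Of 11 immediate-early genes tested, 0 were called higher and 2 lower, the same number as had an unadjusted p under 0.05. These were *Fosb* (log2 fold change −2.35 ± 0.556 (SE), adjusted p by edgeR 0.0274) and *Egr2* (−1.53, SE 0.336, edgeR adjusted p 0.0213). Leaving out 1 tumor moved *Fosb* between −2.98 (without *K-Setd2KO* replicate 2) and −1.81 (without *K-Ctrl* replicate 3). Each call was made in 4 of the 8 fits that dropped a tumor, with an edgeR adjusted p of up to 0.0765 for *Fosb* (without *K-Setd2KO* replicate 3; also lost without *K-Ctrl* replicate 3 or *K-Setd2KO* replicate 1 or 4) and 0.0632 for *Egr2* (without *K-Ctrl* replicate 3; also lost without *K-Ctrl* replicate 2 or *K-Setd2KO* replicate 3 or 4). *Egr1*, a classic early target of ERK, stood at 35.2, 104, 90.6 and 35.5 CPM in *K-Ctrl* and at 83.3, 105, 109 and 197 CPM in *K-Setd2KO* (log2 fold change 0.89 ± 0.418 (SE), adjusted p by edgeR 0.19). *Fos* was not called (log2 fold change −0.71, SE 0.635, edgeR adjusted p 0.491), and stood at 34.4 to 126 CPM in the controls, at 135 CPM in *K-Setd2KO* replicate 2 and at 23.8 to 26.5 CPM in the other three. Without that tumor it was called lower (−1.80, edgeR adjusted p 0.0245).

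Against the same shares of all tested genes (4.97% called higher, 7.74% lower, unadjusted 13.6% and 16.3%), the cascade from RAS to ERK was counted. Among its 24 genes, 2 were called higher and 0 lower (at an unadjusted p under 0.05, 6 higher and 3 lower), with a median log2 fold change of −0.01. They were *Sos2*, an exchange factor that loads RAS with GTP (92.3 to 108 CPM in *K-Ctrl*, 159 to 227 CPM in *K-Setd2KO*, log2 fold change 0.88 ± 0.132 (SE), adjusted p by edgeR 0.00738), and the adaptor *Shc1* (110.5 to 136 CPM and 193 to 286 CPM, log2 fold change 0.92 ± 0.143 (SE), adjusted p by edgeR 0.00824). Both were called in all 8 fits that dropped a tumor, and neither with epithelial scaling (0.27 and 0.31, edgeR adjusted p 0.349 and 0.243). *Mapk3*, which encodes the kinase ERK1, was not called (log2 fold change −0.14, edgeR adjusted p 0.54). With epithelial scaling it stood at −0.75 (edgeR adjusted p 0.02), on a scale where 32.4% of genes were called lower. The move from −0.14 to −0.75 is close to the shift of −0.61 in the median of all genes. *Dusp16* lies on chromosome 6, whose tested genes had a median of 0.33, −0.03, 0.32 and 0.38 above the control mean on the log2 scale in *K-Setd2KO* replicates 1 to 4, and the part of this in *Dusp16* was not tested. None of the 10 members lies on that chromosome.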

How the data were processed

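Libraries from 8 tumors were made with a stranded mRNA kit. The authors deposited raw counts of reads per gene, without normalization, beside exon lengths. STAR 2.5.2b, featureCounts 1.5.0-p1 and GRCm38.p4 are named in the submitters' processing notes. Annotation release and strand setting are not given in the sources used here, so antisense overlaps cannot be resolved. Symbols came from GENCODE M21 (99.26% of 48709 identifiers matched), and *Spry3* had no match.

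Genotype was tested in R 4.3.3 with edgeR 4.0.16 (filterByExpr, TMM, robust quasi-likelihood F test), adjusted by Benjamini-Hochberg over 14929 genes at a threshold of 0.05. Common dispersion gave a biological coefficient of variation of 0.337. The SE of a log2 fold change is its size over the root of F. Exact permutation tests on log2 CPM were two-sided over 70 assignments. The code was tested on simulated data. Alternatives were DESeq2 1.42.0, the tool of the study, limma voom 3.58.1, upper-quartile, RLE and epithelial size factors, 2 other filters, a replicate block, a sex term and leaving out each tumor. The members are named, with the called genes of each pathway list (up to 6) and *Mapk3*, *Egr1*, *Fos*, *Ccnd1* and *Setd2*. Some further genes of that rule are not reported here. Members, pathway lists and marker lists were chosen with earlier results of these data known.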

Additional observations from a re-analysis of the deposited data

Results flagged for a closer look

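In 4 of 52 groups of 4 values, for the members and the other named genes, 1 tumor stood apart from the other three by a gap that was large against the range of its group, where chance gives about 1 in 20 groups, or 2.6. None of the 4 was a member. *Etv1* stood at 87.5 CPM in *K-Setd2KO* replicate 4, against 62.0 to 64.5 CPM in the others of its group. *Fos* stood at 135 CPM in *K-Setd2KO* replicate 2, against 23.8 to 26.5 CPM. *Fosb* stood at 23.8 CPM in *K-Ctrl* replicate 3, against 7.08 to 9.10 CPM. *Shc1* was low in *K-Ctrl* replicate 1, at 110.5 CPM against 132 to 136 CPM.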

How the results depend on the processing

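*Spred1* and *Spry2* were called in 14 and 11 of the 17 alternatives and *Spry1* in 3, and the sign of none of these genes turned. Against 1897 genes and 3 members called, epithelial size factors called 4947 genes (110 higher, 4837 lower) and 2 members, both lower. DESeq2 called 3194 genes (1327 higher, 1867 lower) and 6 members, and a sex term 1237 genes (453 higher, 784 lower) and 1 member. In the cascade list, where 2 were called, epithelial scaling called 12, all lower, and DESeq2 and the filter of 10 counts in every tumor 4 each. Of the other output and feedback genes, 4 by the reported fit, epithelial scaling called 4 (1 higher, 3 lower), DESeq2 7, and no filter, the replicate block and the sex term 2 each. For the other phosphatases, 1 by the reported fit, epithelial scaling called 3, all lower, and DESeq2 2. For the immediate-early genes, 2 by the reported fit, the block and the sex term called 1 each.

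Leaving out 1 tumor gave 763 to 2058 genes, 0 to 4 members, 2 to 5 cascade genes, 0 to 5 immediate-early genes, 1 to 4 other output genes and 1 to 2 other phosphatases. Members numbered 0 without *K-Ctrl* replicate 1 or 3 and 1 without *K-Ctrl* replicate 2, and without these 3 or *K-Setd2KO* replicate 3 the genes numbered 938, 763, 1126 and 1011. The sign turned for *Ccnd1* (−0.27) and *Spred2* (−0.089) with epithelial scaling, for *Spry4* with epithelial scaling (−0.44), a sex term (−0.13) and without 1 tumor (−0.064 to 0.41), and for *Dusp4* with a sex term (0.020) and without 1 tumor (−0.23 to 0.022). Epithelial scaling moves the median of all genes by −0.61, so small positive changes turn sign on it and more genes are called lower. Which scale is closer to the tumor cells was not tested, nor was the cause of the changes under the other settings.

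Groups share replicate numbers, and whether the numbers pair the tumors cannot be told from these values. Deviations of same-numbered tumors correlated at −0.07, −0.03, 0.19 and −0.02. Seen from the *K-Ctrl* tumors, only replicate 3 (1 of 4) correlated best with the *K-Setd2KO* tumor of its own number. So few correlations cannot exclude a shared batch. With the replicate block 1341 genes (403 higher, 938 lower) and 4 members were called, *Spred1*, *Spry2*, *Etv4* and *Phlda1*.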
